A study of Mus musculus with 6 samples.

Results

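The 10 genes Gnao1, Gnai1, Gnai2, Gnai3, Gnaz, Gnas, Gnaq, Gna11, Gna12 and Gna13 encode alpha subunits of heterotrimeric G proteins, and their transcripts were measured in AtT-20 cells with and without a knockdown of Dnmt1. The members are all probe sets that the platform annotation of the array gives to 1 of these symbols alone. That rule found 38 of the 45101 probe sets in the table, between 2 and 7 for each gene, and each probe set is given separately. Of these, 34 had a mean signal high enough to be tested, at least 1 for every gene, and 4 were dimmer. The genes were chosen with results of the same comparison known, among them lower values of Gnao1 on its brightest probe set, so the differences between the groups are given here as a description. Counts of members past a threshold stand beside the same share of all probe sets for reference, and nothing is read from them.

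A heterotrimeric G protein links a receptor in the plasma membrane to enzymes and channels inside the cell. On activation the receptor makes the alpha subunit exchange GDP for GTP, the alpha subunit parts from its beta and gamma partners, and hydrolysis of the GTP ends the signal. Gnas encodes the subunit that stimulates adenylyl cyclase, and in corticotrophs it carries the signal of corticotropin-releasing hormone to cyclic AMP and Pomc. Gnai1, Gnai2, Gnai3, Gnao1 and Gnaz belong to the inhibitory class, used for example by somatostatin receptors. Gnaq and Gna11 activate phospholipase C beta, the route of vasopressin in corticotrophs, while Gna12 and Gna13 form a class of their own. Gnas is also an imprinted locus with several promoters, and it is the gene activated by mutation in many human growth hormone secreting pituitary tumours.

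AtT-20 is a mouse corticotroph line derived from a pituitary tumour. Cells received 20 nM siRNA several times over 8 days, either siDNMT1, directed at the maintenance DNA methyltransferase Dnmt1, or siNT, a non-targeting control, so that every array comes from transfected cells. Both groups hold 3 arrays of total RNA, 1 array of each group from each of 3 repeats of the whole experiment, and the repeats are numbered 1 to 3. Signals are linear intensities scaled to a common median, a difference is siDNMT1 minus siNT in log2(scaled signal + 5.29), and probe sets with a mean scaled signal of at least 16.8 were tested.

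The labels were checked first on Dnmt1 itself. Its brightest probe set gave differences of -1.32, -2.26 and -1.03 in repeats 1, 2 and 3, so the knockdown was deepest in repeat 2 and shallowest in repeat 3. The mean difference was -1.54 (SE 0.24), with a limma adjusted p of 0.151, which became 0.0211 with the repeat number as a block. Groups did not overlap, and the exact permutation test gave 0.1, the smallest two-sided p possible with 3 against 3. Of 7 corticotroph markers on the array 6 were bright enough to be tested, Pomc and Tbx19 among them, while the vasopressin receptor gene Avpr1b had a mean scaled signal of 4.80. Summed over 14 markers of other pituitary cells, fibroblasts, leukocytes and endothelium, the scaled signal was 601 to 719 in the siDNMT1 arrays and 610 to 698 in the siNT arrays, so the ranges overlapped. Among the 11 tested markers 6 were higher and 5 lower after siDNMT1 (median difference 0.05). The sum rests largely on the leukocyte gene Lyz2, with a mean signal of 278, and hides dim markers with larger differences. The fibroblast gene Pdgfra was at 1.26, positive in all 3 repeats with overlapping groups, and the lactotroph hormone gene Prl at -0.91, with limma adjusted p of 0.436 and 0.656 with the block. Pdgfra passed the filter only through its siDNMT1 arrays, with means of 34.3 after siDNMT1 and 13.1 after siNT. Prl passed only through its siNT arrays, with 13.8 after siDNMT1 and 30.1 after siNT. The filter itself thus favours the signs of both. The part of other cell types in the members' values was not tested. In RNA from a whole culture, fewer cells that express a gene and less RNA of it per cell cannot be told apart.

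Across the family, most differences were small and did not point one way. Of the 34 tested probe sets, 23 had lower and 11 higher values after siDNMT1, with a median difference of -0.09, beside a median of -0.06 and a share of 59.2% with lower values over all 27022 tested probe sets. Without scaling the split was also 23 lower and 11 higher, beside 54.75% of all tested probe sets with lower values. With trimmed mean scaling of the arrays it was 19 lower and 15 higher, beside 49.6%. With quantile scaling it was 18 and 16, beside 51.1%. Of those lower under median scaling, Gnai1 1427510_at and Gnas 1443375_at passed the filter only through their siNT arrays. The difference was smaller than 0.3 in either direction for 25 of the 34. The median size of the difference, whatever its sign, was 0.20 over the members and 0.17 over all tested probe sets. No member passed a limma adjusted p of 0.05, either without the block (0 of 34, and 0% of all tested probe sets) or with it (0 of 34, beside 0.0296% of all called higher and 0.0555% called lower, 0.0851% together). At an unadjusted p under 0.05 limma had 3 members without the block, against 3.79% of all tested probe sets, and 4 with it, against 7.83%.

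Full separation of the groups was counted for the members and for all tested probe sets. Of the tested members, 8.82% were separated downwards and 5.88% upwards with median scaling. The siDNMT1 values all lay below the siNT values on 3 of the 34, where 5.78% of all tested probe sets did so, and all above on 2, where 2.96% did; without scaling Gnao1 1421152_a_at alone was separated, downwards, where 1.02% of all tested probe sets were separated downwards and 1.09% upwards. Of the 3 separated downwards, the dim Gnas 1443375_at passed the filter only through its siNT arrays and is no measure of how often members are lower. In all 3 repeats the difference was negative on 9 members and positive on 3, beside 19.2% and 10.1% of all tested probe sets. These counts come from the comparison by which the genes were chosen and are given for reference.

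**Figure D1:**
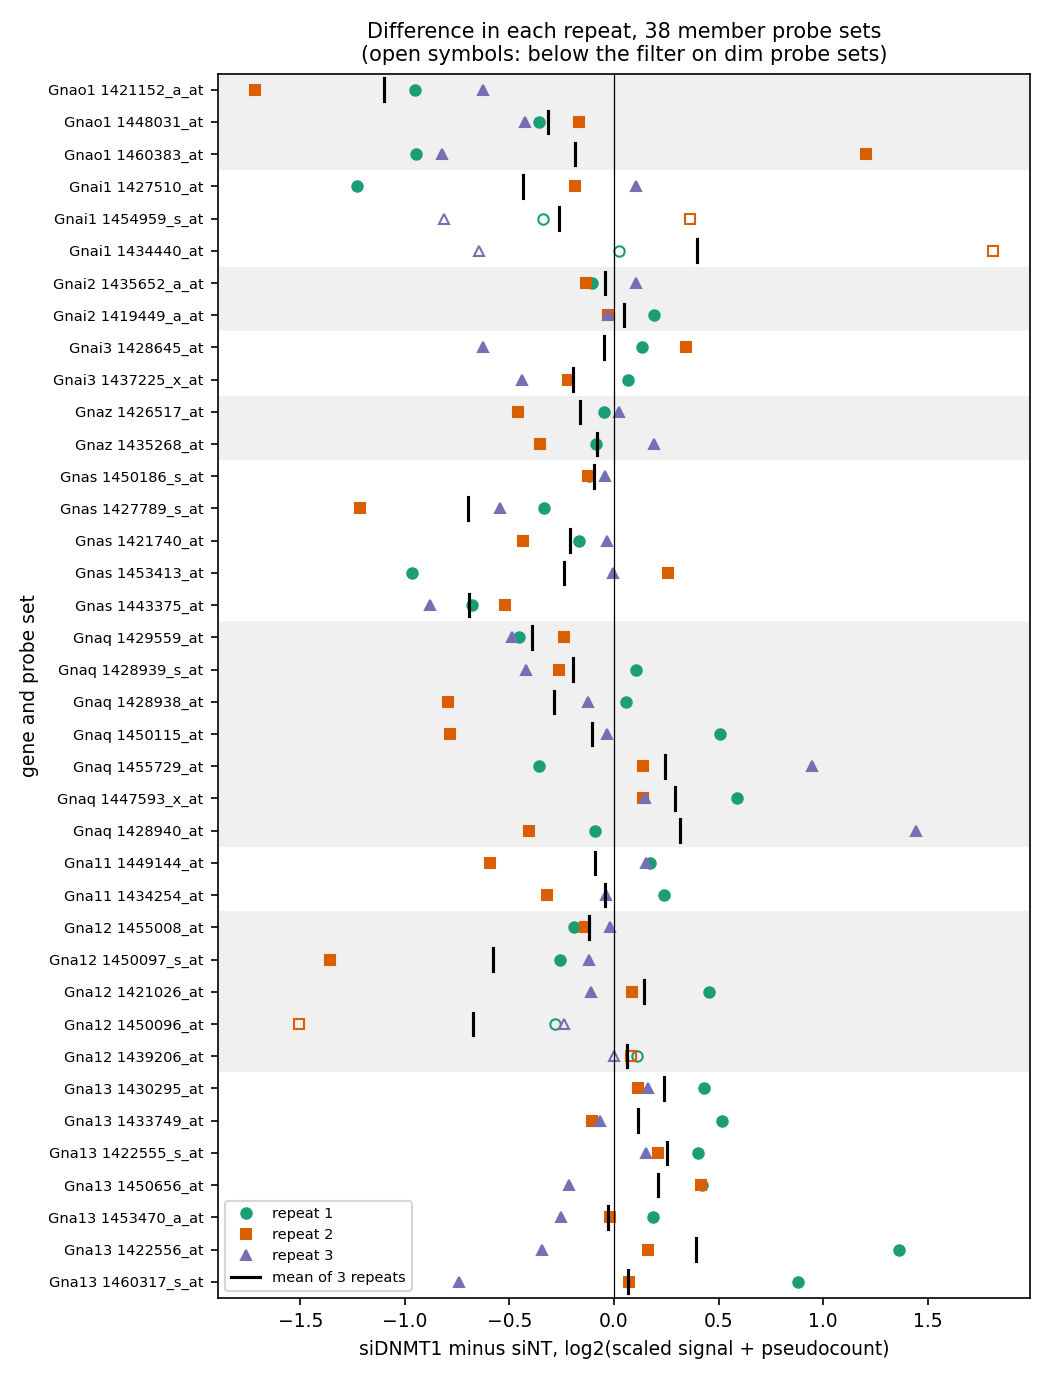
Difference siDNMT1 minus siNT in log2(scaled signal + pseudocount) for each of the 38 probe sets (rows, grouped by gene, brightest first), with 1 symbol per repeat and a black bar at the mean of the 3 repeats. Gnao1 1421152_a_at stands farthest left among the filled rows with a mean of -1.10, 6 of the 7 Gna13 rows have their mean to the right of 0, and the 4 rows with open symbols are too dim to be tested.

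**Figure D2:**
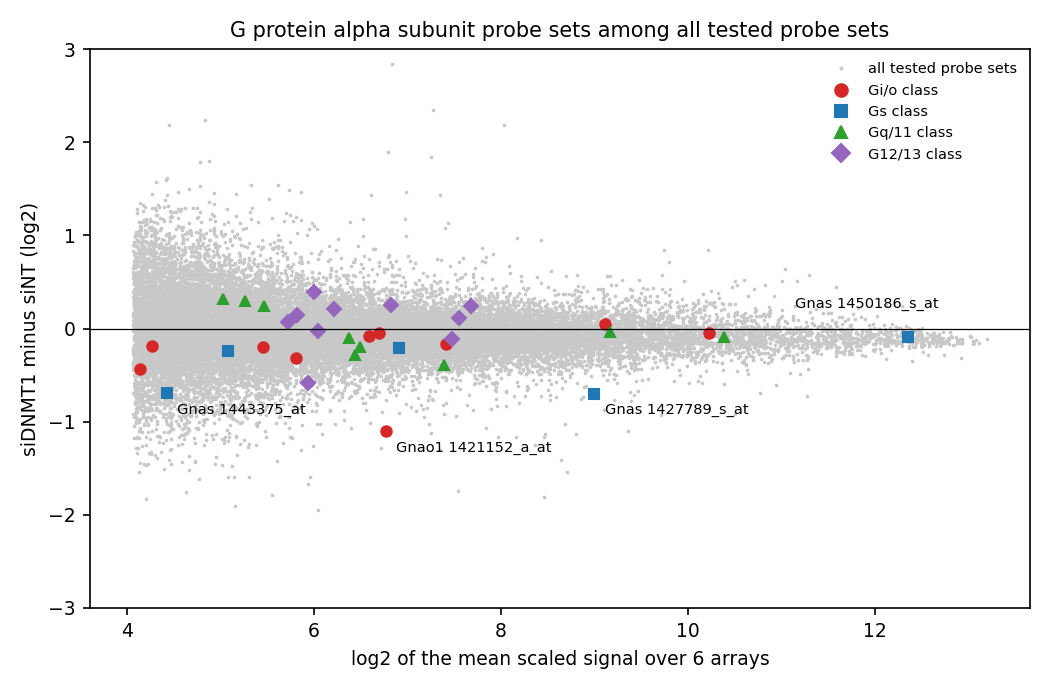
Mean difference siDNMT1 minus siNT (y axis, log2) against the log2 of the mean scaled signal over the 6 arrays (x axis) for all 27022 tested probe sets in grey and the 34 tested alpha subunit probe sets in colour, by class. Gnao1 1421152_a_at at -1.10 and Gnas 1427789_s_at at -0.70 lie below most probe sets of their brightness, and most other members lie within the grey cloud.

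Gnao1 encodes Go alpha, the abundant inhibitory-class subunit of neurons and many endocrine cells, and it had the lowest difference of the family. On probe set 1421152_a_at the scaled signals were 68.4, 56.9 and 74.6 in siDNMT1 repeats 1, 2 and 3, and 137, 199 and 118 in the siNT arrays of the same repeats. Every siDNMT1 value was below every siNT value, and the siNT arrays varied more among themselves than the siDNMT1 arrays did. The means were 66.6 ± 8.94 and 152 ± 42.4 (SD, n = 3), and the difference was -1.10 (SE 0.23). By repeat it was -0.95, -1.72 and -0.63, the same order of sizes as the Dnmt1 differences above, with only 3 repeats to set them side by side. Gnao1 1448031_at and 1460383_at did not keep this order, with -0.17 and 1.21 in repeat 2. Over all tested probe sets, 0.303% were separated downwards with a difference at least as low as that of 1421152_a_at.

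The other 2 Gnao1 probe sets did not show a difference of that size. Probe set 1448031_at read 35.5, 73.5 and 41.4 after siDNMT1 and 47.0, 83.1 and 57.3 after siNT. The groups overlapped, although each siDNMT1 array was below its own siNT array, by -0.36, -0.17 and -0.42, and the mean difference was -0.32 (SE 0.30). On the dim 1460383_at, with a mean signal of 19.3, the repeats disagreed at -0.95, 1.21 and -0.82 (mean -0.19, SE 0.52). The annotation does not say which Gnao1 transcripts each probe set reads, and the gene makes more than 1 splice form, so how far the values of 1421152_a_at stand for the whole gene is not known. All 3 probe sets had negative mean differences under each of the 4 scalings. Over all processing alternatives that gave it a value, 1460383_at ran from -0.89 to 0.25 and kept its sign in 13 of 16. Probe sets 1421152_a_at and 1448031_at kept theirs in all 19.

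**Figure D3:**
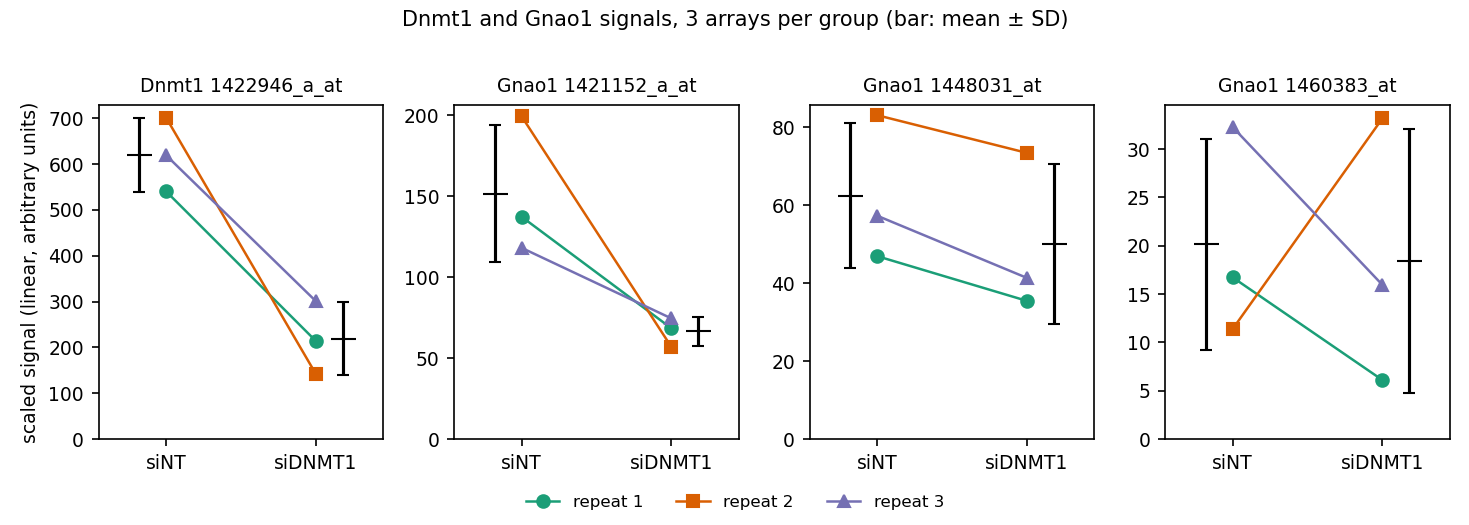
Scaled signal (linear y axes from 0, a separate axis for each probe set) of the brightest Dnmt1 probe set and the 3 Gnao1 probe sets in siNT and siDNMT1 arrays, with lines joining arrays of the same repeat and bars for the mean ± SD of 3 arrays. Dnmt1 and Gnao1 1421152_a_at have no overlap between the groups, whereas the siDNMT1 and siNT values of Gnao1 1448031_at and 1460383_at overlap.

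The promoter of Gnao1 is shown because Dnmt1 acts on the cytosine of CG dinucleotides, which are written here in capitals. The window runs from 250 bases before to 50 after the RefSeq start, at chr8:93810588-93810887 on the plus strand of GRCm38.p6, and holds 42 CG dinucleotides, more than 97% of the 32851 windows of the table.
Gnao1: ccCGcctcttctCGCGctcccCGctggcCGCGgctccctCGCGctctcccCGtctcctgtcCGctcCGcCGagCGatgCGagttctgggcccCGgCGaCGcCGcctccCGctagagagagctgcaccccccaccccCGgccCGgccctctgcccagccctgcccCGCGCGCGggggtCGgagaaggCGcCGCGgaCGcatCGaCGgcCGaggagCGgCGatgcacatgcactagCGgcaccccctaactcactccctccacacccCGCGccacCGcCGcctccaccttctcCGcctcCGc
The array measures RNA only, so the methylation of these positions is not known from these data.

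The 3 Gnai genes encode the subunits that inhibit adenylyl cyclase, and their values gave no common shift. Gnai2, the form found in most cells, had scaled signals of 1034, 1328 and 1157 after siDNMT1 and 1112, 1457 and 1076 after siNT on 1435652_a_at, a difference of -0.04 (SE 0.17). Its other probe set, 1419449_a_at, was at 559, 582 and 552 against 488, 593 and 564, a difference of 0.05 (SE 0.15). Both had overlapping groups and differences smaller than their SE. Trimmed mean and quantile scaling put both above 0, with 1 of the 2 separated upwards.

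Gnai3 varied mainly in repeat 3. Its probe set 1428645_at read 124, 130 and 59.0 after siDNMT1 against 113, 102 and 94.0, which gives differences of 0.13, 0.34 and -0.63 by repeat and a mean of -0.05 (SE 0.28). The dimmer 1437225_x_at was at -0.20 (SE 0.24), with the groups overlapping. Gnai1 was dim throughout, with mean signals of 10.5 to 17.6 on its 3 probe sets, and only 1427510_at reached the filter, at -0.44 (SE 0.45). The siDNMT1 value of that probe set in repeat 1 was 5.75, near the pseudocount, while the 5 other arrays read 17.2 to 23.4. On the other 2 probe sets Gnai1 had differences of -0.26 and 0.40 with repeats of both signs, so no direction can be given for it at this brightness.

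Gnaz encodes Gz alpha, an inhibitory-class subunit that pertussis toxin does not modify. Its signals were 168, 144 and 169 after siDNMT1 and 174, 200 and 167 after siNT on 1426517_at, a difference of -0.16 (SE 0.18). The second probe set, 1435268_at, was at -0.08 (SE 0.21). On both, repeat 2 had the lowest difference, -0.46 and -0.36, and the other repeats lay between -0.09 and 0.19. In the inhibitory class 9 of 10 tested probe sets were below 0 with median scaling (59.2% of all tested) or none (54.75%). With trimmed mean or quantile scaling 7 of 10 were, beside 49.6% and 51.1% of all tested probe sets. Those below 0 include Gnai1 1427510_at, which passed the filter only through its siNT arrays.

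Gnas had lower values after siDNMT1 on all 5 probe sets, by very different amounts. On 1427789_s_at the signals were 362, 296 and 512 after siDNMT1 and 459, 693 and 748 after siNT. Each siDNMT1 array was below its siNT partner, by -0.34, -1.21 and -0.54, but the siDNMT1 value of repeat 3 exceeded the siNT value of repeat 1, so the groups overlapped. The means were 390 ± 110 and 633 ± 154 (SD, n = 3) and the difference was -0.70 (SE 0.24). As for Gnao1 1421152_a_at, its lowest value by repeat came in repeat 2.

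The brightest Gnas probe set, 1450186_s_at, hardly differed. It read 5455, 4101 and 5662 after siDNMT1 and 5920, 4478 and 5834 after siNT, a difference of -0.10 (SE 0.16), with -0.12, -0.13 and -0.04 by repeat. Quantile scaling put it at 0.00. Array offsets were smaller at this brightness. Before scaling, the arrays of repeat 2 were above the other arrays by 0.27 (log2) on this probe set, against a median of 0.87 over probe sets with deposited means of 200 to 500 and 0.38 over those of 4000 to 6000. Whether a difference between the groups is understated at this brightness was not tested.

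The remaining Gnas probe sets were dimmer. On 1443375_at, whose mean signal of 21.6 is not far above the filter, the values were 17.9, 19.1 and 9.37 after siDNMT1 and 31.9, 29.7 and 21.7 after siNT. The groups did not overlap, the repeats gave -0.68, -0.52 and -0.88, and the mean difference was -0.69 (SE 0.37). Its siDNMT1 mean of 15.5 is below the filter of 16.8 and its siNT mean of 27.7 above it, so it was tested only because the siNT values were high. Probe set 1421740_at was at -0.21 (SE 0.23), negative in all 3 repeats but with overlapping groups. On 1453413_at the repeats were -0.97, 0.26 and -0.01, with a mean of -0.24 (SE 0.34). The Gnas probe sets thus ranged from -0.70 to -0.10, and the differences between them were not tested.

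**Figure D4:**
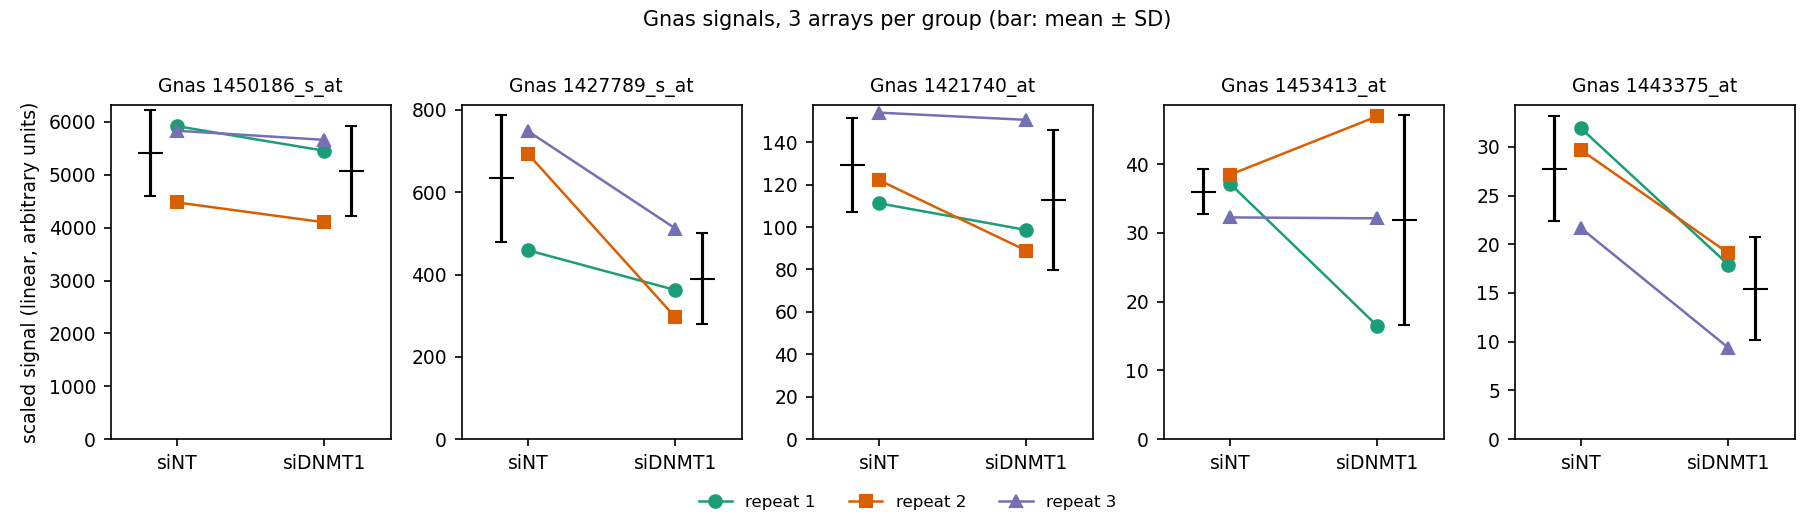
Scaled signal (linear y axes from 0, a separate axis for each probe set) of the 5 Gnas probe sets in siNT and siDNMT1 arrays, brightest on the left, with lines joining arrays of the same repeat and bars for the mean ± SD of 3 arrays. Only 1443375_at has all siDNMT1 values below all siNT values, and on 1427789_s_at every line falls while the ranges overlap.

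Gnas has 4 promoter windows in the RefSeq table, of which the most upstream and the most downstream are shown because its probe sets disagree and its promoters differ in CG content. They lie at chr2:174284070-174284369 and chr2:174329756-174330055, both on the plus strand of GRCm38.p6, and hold 16 and 40 CG dinucleotides, again in capitals.
Gnas upstream: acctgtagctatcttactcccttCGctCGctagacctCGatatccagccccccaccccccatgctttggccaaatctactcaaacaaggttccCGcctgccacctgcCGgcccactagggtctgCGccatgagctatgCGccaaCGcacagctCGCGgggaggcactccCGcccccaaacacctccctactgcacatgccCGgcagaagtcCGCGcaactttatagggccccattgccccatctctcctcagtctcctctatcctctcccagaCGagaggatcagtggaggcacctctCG
Gnas downstream: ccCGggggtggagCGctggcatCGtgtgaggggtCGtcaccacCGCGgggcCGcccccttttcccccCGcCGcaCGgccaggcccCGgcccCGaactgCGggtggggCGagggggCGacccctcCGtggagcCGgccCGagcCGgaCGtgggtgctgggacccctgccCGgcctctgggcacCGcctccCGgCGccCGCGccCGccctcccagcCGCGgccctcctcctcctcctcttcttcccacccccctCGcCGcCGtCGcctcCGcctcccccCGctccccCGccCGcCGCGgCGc
The other 2 windows, which overlap each other, hold 27 and 28. The upstream window has more CG than 67.0% of all windows and the downstream one more than 96.1%, while the annotation does not tie the 5 probe sets to these starts.

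The tested genes beside Gnas had overlapping groups. Of 9 symbols looked for, which need not stand for 9 separate genes, 6 were on the array and 5 were tested. All 5 had negative differences under median scaling and 4 of 5 under each of the 3 other scalings. None passed by limma with or without the block. At an unadjusted p under 0.05 there were 0 in either fit, beside 3.79% of all tested probe sets without the block and 7.83% with it. Gnasas1, the antisense transcript of the locus, was at -0.11 (SE 0.40) with a mean signal of 20.0. Npepl1 was at -0.15 (SE 0.18), Nelfcd at -0.14 (SE 0.18) and the platelet tubulin gene Tubb1 at -0.26 (SE 0.30). The sixth, the cathepsin gene Ctsz, was below the filter and is named after its values were seen. Its brightest probe set read 13.2, 17.7 and 17.4 after siDNMT1 and 1.76, 2.20 and 0.881 after siNT, with all siDNMT1 arrays higher. The siNT values lie under the pseudocount of 5.29, which sets the size of any log2 difference here, so none is given.

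Gnaq, the phospholipase C activator, had 7 probe sets, which did not point one way. On the brightest, 1429559_at, the signals were 130, 167 and 138 after siDNMT1 and 180, 198 and 196 after siNT. All siDNMT1 values were lower, the repeats gave -0.46, -0.24 and -0.49, and the mean difference was -0.39 (SE 0.18). The opposite separation appeared on the dimmer 1447593_x_at, which read 40.4, 43.7 and 43.9 against 25.0, 39.3 and 39.1, a difference of 0.29 (SE 0.26). There the siNT value of repeat 1 was low and the other 5 arrays lay between 39.1 and 43.9. As an _x_at probe set, 1447593_x_at may read several genes.

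The 5 other Gnaq probe sets had overlapping groups. Those of middle brightness, 1428939_s_at, 1428938_at and 1450115_at, were at -0.19, -0.29 and -0.10, and the dimmer 1455729_at and 1428940_at at 0.24 and 0.32, with SEs of 0.21 to 0.39. In both of the latter the largest positive value came from repeat 3, at 0.95 and 1.44, where the siNT signals were 21.5 and 12. The split of 4 probe sets below 0 and 3 above was the same under all 4 scalings.

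Gna11, the second activator of phospholipase C, differed less. On 1449144_at the signals were 1355, 1099 and 1432 after siDNMT1 and 1203, 1663 and 1288 after siNT, a difference of -0.09 (SE 0.17). Repeat 2 was at -0.60 and the other repeats at 0.17 and 0.15. Probe set 1434254_at was also lowest in repeat 2, with 0.24, -0.32 and -0.04 by repeat and a mean of -0.04 (SE 0.17). Both had overlapping groups, and trimmed mean or quantile scaling put 1 of the 2 above 0.

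Gna13 was the only gene of the family with most of its tested probe sets above 0 under median scaling. Of 7 probe sets, 6 had positive differences with median scaling or none, and all 7 with trimmed mean and quantile scaling. The brightest, 1430295_at, read 233, 214 and 220 after siDNMT1 and 171, 197 and 195 after siNT, with all siDNMT1 values higher and a difference of 0.24 (SE 0.17). The 6 other probe sets overlapped between the groups and lay between -0.03 and 0.39.

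For Gna13 the repeats were not alike. In repeat 1 all 7 probe sets were positive, from 0.19 to 1.36, whereas in repeat 3 only 2 were, 1430295_at at 0.16 and 1422555_s_at at 0.15, and the other 5 ranged from -0.74 to -0.07. On 1422556_at, which had the highest mean at 0.39 (SE 0.33), the values were 97.2, 82.7 and 42.7 against 34.6, 73.5 and 55.6. That mean therefore rests on the low siNT array of repeat 1. Probe sets of 1 gene read the same RNA on the same arrays, so their common direction is not 7 independent measurements.

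Gna12, of the same class as Gna13, had 3 tested probe sets. Its brightest, 1455008_at, was at 131, 192 and 191 after siDNMT1 and 151, 212 and 194 after siNT, a difference of -0.12 (SE 0.21). Probe set 1450097_s_at was at -0.58 (SE 0.35), of which most came from repeat 2, with signals of 21.4 after siDNMT1 and 63.3 after siNT and a difference of -1.36, against -0.26 and -0.12 in the other repeats. The third, 1421026_at, was at 0.14 (SE 0.24). Below the filter, 1450096_at was separated downwards at -0.67, with 25.8 in the siNT array of repeat 2 and 4.43 to 7.88 in the 5 others, and 1439206_at stayed at 1.65 to 3.01, under the pseudocount.

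The members' values were lower in repeats 2 and 3 than in repeat 1, as were those of all tested probe sets. By repeat, 17, 23 and 24 of the 34 tested members were below 0, or 50%, 67.6% and 70.6%, beside 47.6%, 61.0% and 57.9% of all tested probe sets. The member medians were 0.01, -0.15 and -0.06 in repeats 1, 2 and 3, and those of all tested probe sets 0.02, -0.11 and -0.07. Repeat 2 also had the brightest arrays, with deposited medians of 36.3 and 33.2 where the other arrays had 19.8 to 24.0, and the deepest Dnmt1 knockdown, and the part of either in these values was not tested. The spread between repeats, as the SD of the 3 differences of a probe set, had a median of 0.28 over the members and 0.32 over all tested probe sets.

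The pattern of Gnao1 1421152_a_at over the 6 arrays was compared with the brightest tested probe set of each other gene. Likeness was the mean absolute distance of the log2 values after each probe set was centred on its own mean. The 5 closest genes were Cald1, encoding the actin-binding caldesmon, at 0.12, the apolipoprotein gene Apoc1 at 0.13, the synaptic vesicle gene Sv2a at 0.13, 2810459M11Rik at 0.14 and the enolase gene Eno3 at 0.16. Their differences were -0.85, -1.26, -0.88, -0.82 and -1.25. Eno3 passed limma with the repeat as a block (adjusted p = 0.0141) and not without it (adjusted p = 0.151). Apoc1 was dim and passed the filter only through its siNT arrays, at 8.37 ± 1.71 after siDNMT1 and 27.6 ± 5.52 after siNT (SD, n = 3). All 5 were chosen for being alike over 6 arrays out of 13476 genes, so the likeness is a description of these arrays.

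The beta and gamma subunits, with which the alpha subunits form the inactive trimer, were described on the brightest probe set of each gene. Of 18 genes 17 were on the array and 14 were tested, 6 with higher and 8 with lower values and a median of -0.09. None passed the limma threshold in either direction, with or without the block. At an unadjusted p under 0.05 there was 1 in each fit, beside 3.79% of all tested probe sets without the block and 7.83% with it. That was Gng4, encoding a gamma subunit, with signals of 499, 485 and 366 after siDNMT1 and 588, 732 and 590 after siNT, a difference of -0.50 (SE 0.18). Every siDNMT1 value was lower. The 2 dimmer Gng4 probe sets, at -0.58 and -0.30, had overlapping groups. Gnb4 was also separated downwards, at -0.21 (SE 0.16), and Gnb5, which pairs with RGS proteins, and Gng7 were at -0.26 (SE 0.17) and -0.48 (SE 0.32).

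Of the enzymes, exchange factors and channels that alpha subunits or their partners control, all 27 were on the array and 24 were tested. There were 9 with higher and 15 with lower values, a median of -0.11, and 0 passed by limma in either fit. An unadjusted limma p under 0.05 came for 0 without the block and 5 with it, beside 3.79% and 7.83% of all tested probe sets. Prkar1a, the regulatory subunit of protein kinase A whose loss causes Carney complex, read 3389, 2977 and 3868 after siDNMT1 and 4230, 3787 and 4488 after siNT, a difference of -0.29 (SE 0.14). The groups overlapped, since siNT repeat 2 lay below siDNMT1 repeat 3. The other Prkar1a probe sets, with overlapping groups, were at -0.17 and -0.02. A second regulatory subunit gene, Prkar2a, was separated downwards at -0.44 (SE 0.22), with the other probe sets at -0.32, -0.51 and 0.09. Further differences were -0.74 (SE 0.35) for Kcnj9, a G protein gated potassium channel, and 0.39 (SE 0.19) for the adenylyl cyclase gene Adcy1. The 3 other Kcnj9 probe sets were below the filter at -0.03, 0.67 and -0.18, so its value rests on 1 probe set. The other Adcy1 probe set, also tested, was at 0.17 with repeats of both signs.

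Regulators of the alpha subunits, among them the RGS proteins that speed GTP hydrolysis, gave 9 higher and 15 lower values among 24 tested of 31 genes under median scaling. The split was the other way round under the other scalings, 13 higher and 11 lower without scaling and 14 and 10 by both the trimmed mean and quantiles. The median was -0.02, and it turned to 0.01 without scaling, 0.04 by the trimmed mean and 0.03 by quantiles. No regulator passed by limma with or without the block. In each fit 4 had an unadjusted p under 0.05, beside 3.79% of all tested probe sets without the block and 7.83% with it. Rgs16 was at 0.95 (SE 0.37), with -0.13, 1.98 and 1.00 by repeat, and it passed the paired limma fit without repeat 1 (adjusted p = 0.0419). The 2 dimmer Rgs16 probe sets were separated upwards, 1 of them at 0.54 (32.8, 31.6 and 44.3 against 25.1, 21.4 and 22.6). The other, below the filter, read 13.9, 31.3 and 15.8 after siDNMT1 and 2.99, 1.62 and 1.72 after siNT. Its siNT values lie under the pseudocount, which sets the size of any log2 difference there, so none is given. Rgs20, Gprin1, Gap43 and Rgs3 were separated downwards. Rgs20, whose product acts on Gz and Gi alpha, was at -0.77 (SE 0.30) from signals near the filter, Gprin1, which binds Go alpha at growth cones, at -0.47 (SE 0.21), and the growth cone gene Gap43, whose product stimulates Go alpha, at -0.37 (SE 0.15). Rgs3, named after its values were seen, was at -0.30 (SE 0.20). The second tested Gprin1 probe set read 16.4, 12.2 and 17.1 after siDNMT1 and 57.1, 58.9 and 52.0 after siNT, a difference of -1.59. It passed the filter only through its siNT arrays, since its siDNMT1 mean of 15.2 is below 16.8, and it missed the limma threshold in both fits (adjusted p = 0.244, and 0.0921 with the block).

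Over the 3 lists 7 of 62 tested genes were separated downwards and 0 upwards, beside 5.78% and 2.96% of all tested probe sets; these shares hold for median scaling. By the trimmed mean the counts were 5 and 2, beside 3.92% and 5.01% of all, by quantiles 6 and 3, beside 4.43% and 4.82%, and without scaling 0 and 0, beside 1.02% and 1.09%. Gnat2 was separated as well, at -0.39 (SE 0.23). It is an alpha subunit gene of cone photoreceptors and 1 of 4 tested among 6 further alpha subunit genes. The others, Gna14, Gna15 and Gnal, were at -0.08, -0.05 and 0.36. In RefSeq gene order 5 of the 6, all but Gnal, were set against a member, with no other protein-coding gene between Gnai3 and Gnat2, Gna11 and Gna15, Gnaq and Gna14 or Gnai1 and Gnat3, and 1 between Gnai2 and Gnat1. In the pairs with both genes tested no separation was shared, since Gnai3, Gna11, Gna15 and Gna14 all had overlapping groups. Gnat1 was below the filter and Gnat3 was not on the array, so their pairs were not compared.

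The promoter windows found for the members all held more CG than the median window. Promoter windows were found for 8 of the 10 genes, and the table holds none for Gnai2 and Gnaz under these symbols. The 11 windows held 16 to 53 CG dinucleotides with a median of 39, beside a median of 7 over all windows, and 33.0% of all windows hold 16 or more. Gnai1 had the most, 53, followed by Gna11 with 48, Gnao1 with 42, Gna13 with 40, Gnaq with 39, Gna12 with 30 and Gnai3 with 21. Gnao1 and Gna13 have nearly the same count, with brightest probe sets at -1.10 and 0.24; a relation of CG count to the differences was not tested.

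**Figure D5:**
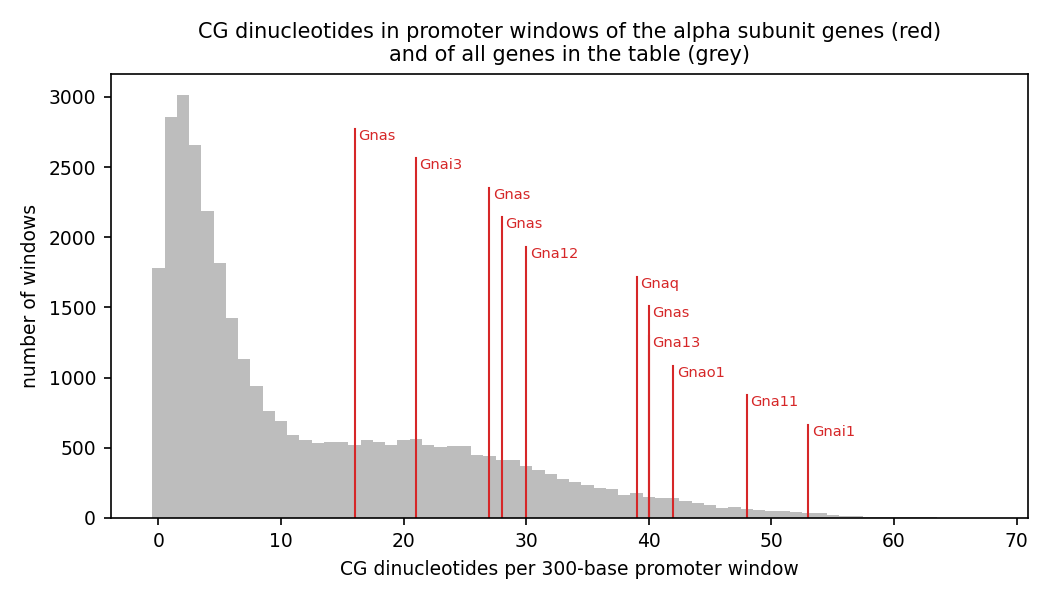
Number of promoter windows (y axis) by their count of CG dinucleotides in 300 bases (x axis), for all 32851 windows in grey, with a red line at each of the 11 windows of 8 alpha subunit genes. The height of the red lines has no meaning and only spaces the names; the lines lie between 16 and 53, above the median of 7.

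Short motifs were looked for on both strands of the same windows. The full cyclic AMP response element TGACGTCA was in no member window and in 1.79% of all windows, and its shorter form TGACG was in 4 of the 11, 3 of Gnas and 1 of Gnai3, against 20.8% of all. The GC box GGGCGG, which may overlap a CG counted above, was in 7 of 11 windows and in 35.7% of all, but not in that of Gnao1. The TATAAA box was in 3 windows of Gnas, not in the most downstream one, and in 13.6% of all windows. A match of letters is not a site in use.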

How the data were processed

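The deposited table holds 1 linear intensity per probe set and array, made by the authors with GCOS per the submitters' processing notes. The version, parameters and target intensity of GCOS, not given in the sources used here, could move the levels, and detection calls were not used. Deposited array medians differed by more than 10%, so each array was divided to a common median log2 signal. Differences are on log2(scaled signal + 5.29), the pseudocount being the 20th percentile of all deposited intensities, which understates changes of dim probe sets. Probe sets at or above the 40th percentile of mean scaled signal (16.8) were tested, 27022 in all; 64 controls were left out. Symbols come from the platform annotation, which gives 34945 probe sets 1 symbol, 932 several and 9160 none.

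Groups were compared with linear models in limma 3.58.1 (R 4.3.3), moderated by eBayes with a variance trend. Its two-sided p-values were adjusted by Benjamini-Hochberg across the 27022 probe sets, and the code was tested on simulated data. The paired fit adds the repeat number as a block. After each group's mean was subtracted, the siDNMT1 and siNT arrays of repeats 1, 2 and 3 correlated at 0.173, 0.231 and 0.257, each above 0.1, so the numbers, which mark independent repeats per the labels, pair the arrays. No 2 arrays held identical values. The number of arrays limits the precision.

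The members and lists were chosen with earlier results of these data known. Named are all member probe sets, Dnmt1, from each list up to 4 tested genes with the smallest unadjusted p plus any past the threshold, and the 5 genes most like Gnao1. Promoter windows are from RefSeq, GRCm38.p6. Alternatives were 3 other scalings, 2 pseudocounts, 2 filters, the block and no variance trend. Further ones left out _x_at and _s_at probe sets, which may read several genes, or left out arrays or repeats.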

Additional observations from a re-analysis of the deposited data

How the results depend on the processing

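Over 19 alternatives the difference of Gnao1 1421152_a_at kept its sign, from -1.33 to -0.79, and 16 of the 34 tested member probe sets kept theirs in every alternative that gave a value. The number of members passing limma was 0 in each, except 2 in the paired fit without repeat 3, Gnao1 1421152_a_at at -1.33 and Gnas 1427789_s_at at -0.77, where 0.966% of all tested probe sets passed. All tested probe sets gave 0 calls, but 23 with the replicate block, 2 without scaling and 1 each with trimmed mean scaling, quantile scaling, the 60th percentile filter and without _x_at and _s_at probe sets; leaving out 1 array gave 0 to 4, and the paired fit gave 53 without repeat 1, 50 without repeat 2 and 261 without repeat 3. Dnmt1 stayed at -1.54 with the block, where it passed (adjusted p = 0.0211), ran from -1.79 to -1.26 with 1 array left out, and was -1.65, -1.17 and -1.79 in the paired fit without repeat 1, 2 or 3. With the block Eno3, 1 of the genes most like Gnao1, passed as well (adjusted p = 0.0141), and no other gene named in the report changed its call. Members separated downwards, 3 in the report, numbered 1 without scaling (5.78% and 1.02% of all probe sets), 3 to 10 with 1 array left out, the 10 without siNT repeat 1, and 10, 8 and 9 without repeat 1, 2 or 3; upwards they numbered 2, and 0 without scaling, 4 with trimmed mean and with quantile scaling (all probe sets: 2.96%, 1.09%, 5.01% and 4.82%), 1 without _x_at and _s_at probe sets, 2 to 5 with 1 array left out, the 5 without siDNMT1 repeat 3, and 3, 4 and 6 without repeat 1, 2 or 3. Fewer arrays are easier to separate, which the rule itself brings about. The share of all tested probe sets is not given here for the runs that left out arrays, repeats or probe sets. Nothing is read from the member counts of those runs. Regulators called ran from 0 to 1, the 1 being Rgs16 without repeat 1. The cause of the other changes was not tested. Signals near the pseudocount, as for Gnai1, limit what can be said of those members.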
